A study of Homo sapiens with 6 samples.

Results

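The transcriptional co-activator YAP, its TEAD partners and 7 genes known as their targets or feedback regulators were followed in RL95-2, a long-established line from a human endometrial carcinoma. The 10 genes were chosen by name, as the files spell them, from the 23228 genes counted: YAP1, TEAD1, TEAD4, AMOTL1, AMOTL2, LATS2, CTGF, CYR61, ANKRD1 and AXL. CTGF and CYR61 are now called CCN2 and CCN1. RNA-seq compared 3 control libraries with 3 ADP-CM libraries, where ADP-CM is medium conditioned by mature adipocytes from human adipose tissue. RL95-2 cells had been grown in RPMI with 10% FBS and were then kept for 24 h without serum in both groups. Control cells received RPMI and unconditioned DMEM in equal volumes, and ADP-CM cells received RPMI and ADP-CM in equal volumes. The cells were of 1 line, and no label says that the 3 replicates were separate cultures, so p-values measure the spread between these libraries only.

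The Hippo pathway controls how much YAP and its relative TAZ enter the nucleus. When the kinases MST1/2 and LATS1/2 are active, they phosphorylate YAP and TAZ, which are then held in the cytoplasm or degraded. When the kinases are less active, YAP and TAZ bind TEAD proteins, the factors that contact DNA, and switch on genes for matrix proteins, receptors and cytoskeletal regulators. Several of these targets, among them LATS2 and AMOTL2, restrain YAP in turn. YAP activity is set largely by phosphorylation and location of the protein, which RNA-seq does not measure. In bulk RNA, a smaller share of cells expressing a gene and less RNA per cell cannot be told apart.

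The promoters of CTGF and ANKRD1 are shown because these genes are standard readouts of TEAD, that of YAP1 because it encodes the co-activator, and that of AXL because AXL showed the smallest p-value of the 10 genes. Each sequence gives the 250 bases before the annotated start, 5′ to 3′ on the strand of the gene, from RefSeq (table build GRCh38.p14). The sequences were matched exactly to GRCh37, whose positions are given. Capitals mark the TEAD core motif GGAATG, searched on both strands.
CTGF, chr6:132272513-132272762, minus strand: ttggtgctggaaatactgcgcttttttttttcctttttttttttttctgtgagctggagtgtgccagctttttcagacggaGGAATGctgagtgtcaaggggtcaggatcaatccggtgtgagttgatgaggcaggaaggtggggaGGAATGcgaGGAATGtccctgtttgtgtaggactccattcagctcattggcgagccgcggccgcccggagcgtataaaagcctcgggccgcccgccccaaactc
ANKRD1, chr10:92680845-92681094, minus strand: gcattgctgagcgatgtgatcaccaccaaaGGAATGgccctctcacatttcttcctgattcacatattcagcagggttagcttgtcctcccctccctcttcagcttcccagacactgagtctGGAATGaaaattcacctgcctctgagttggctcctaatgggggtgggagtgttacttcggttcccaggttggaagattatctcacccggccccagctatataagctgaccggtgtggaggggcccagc
YAP1, chr11:101980928-101981177, plus strand: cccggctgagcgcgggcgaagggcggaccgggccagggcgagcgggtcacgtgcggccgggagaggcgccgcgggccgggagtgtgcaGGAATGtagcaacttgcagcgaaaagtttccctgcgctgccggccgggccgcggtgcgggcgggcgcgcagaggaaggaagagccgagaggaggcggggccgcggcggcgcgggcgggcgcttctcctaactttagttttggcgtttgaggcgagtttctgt
AXL, chr19:41724878-41725127, plus strand: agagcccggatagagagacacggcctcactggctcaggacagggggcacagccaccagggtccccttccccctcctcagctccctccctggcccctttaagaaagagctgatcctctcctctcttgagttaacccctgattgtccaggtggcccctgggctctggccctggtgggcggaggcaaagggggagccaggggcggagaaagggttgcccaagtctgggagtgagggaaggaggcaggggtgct

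CTGF held 3 TEAD core motifs in this window, with first bases at -169, -104 and -95 from the start, and ANKRD1 held 2, at -220 and -128. YAP1 held 1, at -162, and AXL held 0. RefSeq promoters were matched for 7 of the 10 genes, over a window of 300 bases that adds 50 bases after the start. The other promoters matched were those of LATS2, with 1 motif at 10 bases after the start, and of AMOTL1 and AMOTL2, with 0. Only 1 start per gene was searched. For AMOTL1 the 250 bases before it, chr11:94501272-94501521, lay inside the gene span given below, which begins at 94439597. Of 27305 promoters of the same length, 14.0% held the TEAD core. The AP-1 motif TGANTCA was found in ANKRD1 alone among the 7, as TGATTCA from -195 to -189 and not overlapping a TEAD core, and in 7.76% of all promoters. The CArG box, the motif of SRF, was in none of the 7 and in 1.29% of all promoters. These matches describe letters in a short window and are not evidence of binding. CYR61, TEAD1 and TEAD4 were not in the promoter table used here.

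Of the 10 genes, 2 rose, 4 fell and 4 did not pass the test in ADP-CM. AXL and CYR61 rose. ANKRD1, TEAD4, AMOTL2 and AMOTL1 fell. CTGF, LATS2, YAP1 and TEAD1 did not pass the threshold. The test was edgeR's quasi-likelihood test on the deposited counts, with Benjamini-Hochberg adjustment over all 12663 genes tested, and a gene passed at an adjusted p under 0.01. At this limit 13.5% of all tested genes rose and 13.0% fell. When a fold change over 1.5 was also required, 2.27% of tested genes passed and ANKRD1 was the only one of the 10. The libraries of the groups did not overlap for 7 of the 10 genes, against 45.5% of all tested genes. The median log2 fold change of the 10 was -0.03, against -0.0023 over all tested genes, and the median of its absolute size was 0.12 against 0.11.

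Library depth ran from 16262614 to 18363033 reads assigned to genes, and the common biological coefficient of variation was 1.67%. How often a gene was called depended on its level, so the 10 genes were set beside genes of like level. Of 584 tested genes with a mean of 300 CPM (reads scaled to library size, TMM-normalized) or more, 56.3% were called in either direction, and of the 5 genes of this class, CYR61, AMOTL1, AMOTL2, YAP1 and TEAD1, 3 were. Between 30 and 100 CPM, 28.8% of 4265 genes were called, and 2 of 4 here, AXL and TEAD4 but not CTGF or LATS2. Under 30 CPM, 16.5% of 5695 genes were called, and ANKRD1 was the only one of the 10 at that level.

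**Figure D1:**
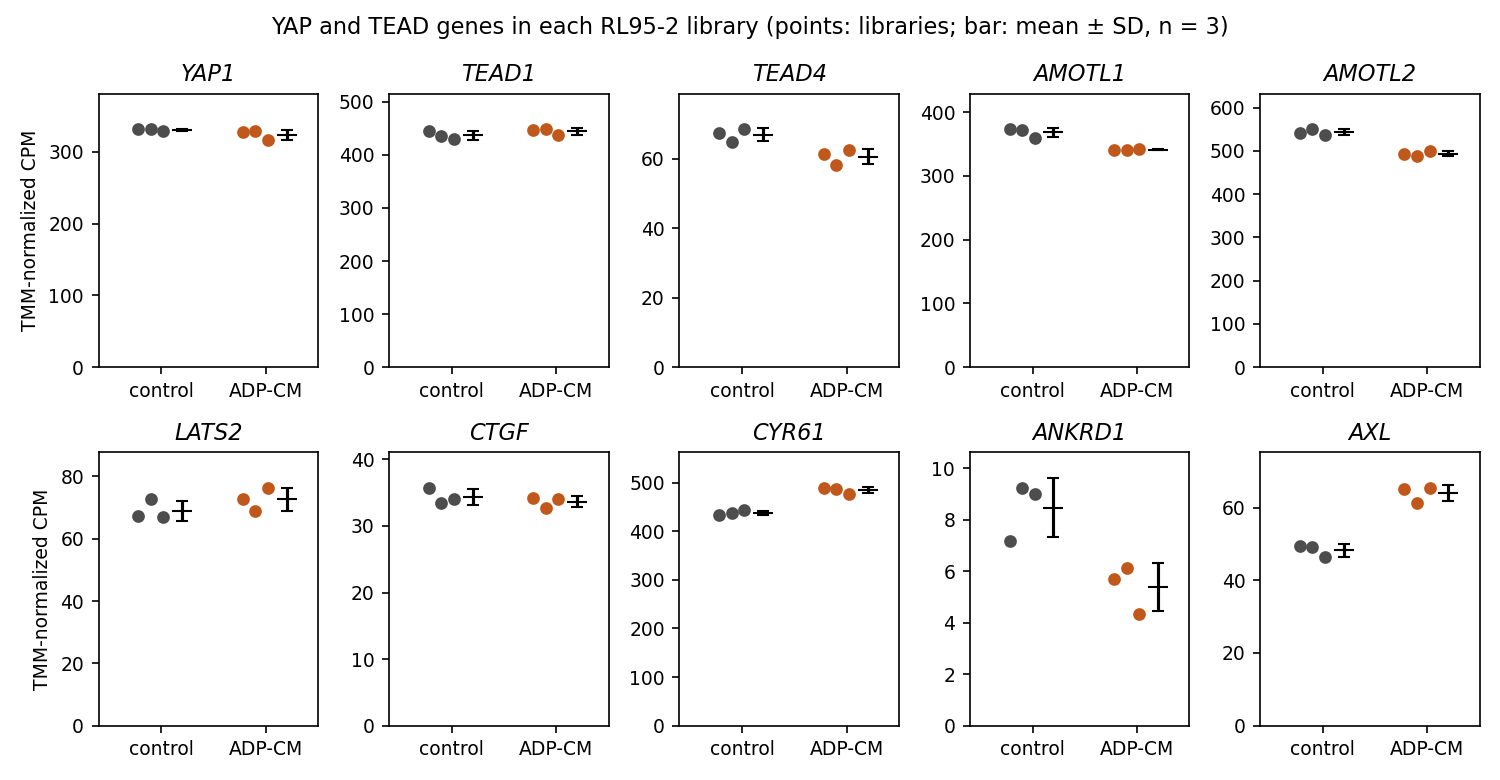
TMM-normalized CPM (y axes, from 0) of each of the 10 genes in the 3 control and 3 ADP-CM libraries; points are libraries and bars are mean ± SD, n = 3. AXL and CYR61 lie higher in every ADP-CM library and ANKRD1, TEAD4, AMOTL1 and AMOTL2 lower, while CTGF, LATS2 and TEAD1 overlap.

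YAP1 encodes YAP and lies at chr11:101981178-102104155 on the plus strand (GRCh37), with 9 exons in its canonical transcript. Its TMM-normalized level was 331.2, 331.5 and 329.4 CPM in control replicates 1 to 3 and 327.0, 328.6 and 316.0 CPM in ADP-CM replicates 1 to 3. The groups did not overlap, but the gap was small and ADP-CM replicate 3 lay farthest from the controls. The log2 fold change was -0.03 ± 0.0227 (SE), with a 95% interval of -0.075 to 0.015 and adjusted p = 0.315. Exons of genes on the other strand cover 10.1% of its exonic bases. WWTR1 encodes TAZ, the paralog of YAP, and had 41.5 ± 0.584 CPM in control (SD, n = 3) and 44.6 ± 1.88 CPM in ADP-CM. This is a log2 fold change of 0.10 with adjusted p = 0.0861.

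The TEAD proteins bind DNA and recruit YAP or TAZ. TEAD1, at chr11:12695968-12966284 on the plus strand with 13 exons, had 445.0, 435.9 and 429.3 CPM in control and 447.0, 448.5 and 437.1 CPM in ADP-CM. The groups overlapped. Its log2 fold change was 0.025 ± 0.0211, with a 95% interval of -0.02 to 0.07 and adjusted p = 0.384. TEAD4, at chr12:3068496-3149842 on the plus strand with 13 exons, had 67.25, 64.79 and 68.48 CPM in control and 61.2, 58.2 and 62.4 CPM in ADP-CM. Every ADP-CM library lay under every control library. TEAD4 fell by 0.14 on the log2 scale (SE 0.0403, 95% interval -0.22 to -0.06, adjusted p = 0.00397), to 0.907 of its control level. This call depended on the libraries and on the tool: TEAD4 did not pass under DESeq2 (adjusted p = 0.0355), nor without control replicate 1 (0.0165) or 3 (0.0358) or ADP-CM replicate 1 (0.0114) or 2 (0.0331).

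The other TEAD paralogs did not pass the test. TEAD3 had 55.3 ± 2.28 CPM in control and 54.0 ± 3.28 CPM in ADP-CM, a log2 fold change of -0.03 with adjusted p = 0.622. TEAD2 was near the lower end of detection, at 1.87 ± 0.551 CPM in control and 2.84 ± 0.669 CPM in ADP-CM, with overlapping libraries and adjusted p = 0.0196. In the list of 9 YAP, TAZ, TEAD and VGLL genes, all 9 were tested. Of these 3 fell and 0 rose, beside 13.0% lowered and 13.5% raised over all tested genes. At an unadjusted p under 0.05, 2 of the list were higher, and 0 were raised in DESeq2. Of all 12663 tested genes, 2859 were higher at that limit and 1124 were raised in DESeq2. TEAD2 passed without control replicate 3 (adjusted p = 0.00616) or without ADP-CM replicate 1 (adjusted p = 0.00607), so the count of raised genes was then 1. The 3 that fell were TEAD4, VGLL1 and VGLL4.

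VGLL proteins are cofactors that bind TEAD in place of YAP and TAZ. VGLL1, expressed in some epithelia, had 196.5, 195.5 and 195.0 CPM in control and 161.5, 155.7 and 163.3 CPM in ADP-CM. The controls were nearly equal, and every ADP-CM library was clearly lower. VGLL1 fell by 0.29 on the log2 scale (SE 0.0274, adjusted p = 1.1e-13). VGLL4, which opposes YAP binding to TEAD, fell by 0.22 (SE 0.0376, adjusted p = 2.01e-06), from 81.1 ± 2.14 to 69.5 ± 2.41 CPM, and 23.8% of its exonic bases are overlapped by genes on the other strand.

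The angiomotin-like proteins AMOTL1 and AMOTL2 sit at cell junctions and hold YAP there, and AMOTL2 is also a target of YAP. AMOTL1, at chr11:94439597-94609913 on the plus strand with 13 exons, had 373.2, 371.6 and 359.9 CPM in control and 340.3, 340.6 and 342.8 CPM in ADP-CM. The 3 ADP-CM libraries were close together and under every control. AMOTL1 fell by 0.11 on the log2 scale (SE 0.0221, 95% interval -0.154 to -0.065, adjusted p = 5.08e-05), to 0.927 of control. AMOTL2, at chr3:134074189-134094321 on the minus strand with 10 exons, had 541.6, 549.9 and 536.1 CPM in control and 493.7, 486.9 and 500.0 CPM in ADP-CM. Here too the groups did not overlap. AMOTL2 fell by 0.14 (SE 0.0201, 95% interval -0.18 to -0.10, adjusted p = 9.5e-08), to 0.91 of control. A ribosomal protein pseudogene, RPL39P5, covers 2.89% of its exonic bases on the same strand. AMOT, the third member of the family, was low at 1.17 ± 0.0672 CPM in control and 1.28 ± 0.187 CPM in ADP-CM, with adjusted p = 0.765.

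LATS2 encodes a kinase that phosphorylates YAP and is itself induced by YAP. The gene lies at chr13:21547175-21635725 on the minus strand and has 8 exons. It had 67.4, 72.7 and 67.0 CPM in control and 72.8, 69.0 and 76.4 CPM in ADP-CM. Control replicate 2 lay inside the range of ADP-CM. The log2 fold change was 0.075 ± 0.0401 (SE), with a 95% interval of -0.005 to 0.156 and adjusted p = 0.138. Its paralog LATS1 had 25.6 ± 0.0772 CPM in control and 27.5 ± 0.532 CPM in ADP-CM, with a log2 fold change of 0.10 and adjusted p = 0.167.

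CTGF and CYR61 encode secreted matricellular proteins of the CCN family that bind integrins, and both are among the best known YAP targets. CTGF, at chr6:132269316-132272512 on the minus strand with 5 exons, had 35.75, 33.4 and 34.09 CPM in control and 34.2, 32.7 and 34.0 CPM in ADP-CM. The groups overlapped and control replicate 1 was the highest of the 6. The log2 fold change was -0.03 ± 0.0531 (SE), with a 95% interval of -0.14 to 0.07 and adjusted p = 0.677. The lncRNA gene LINC01013 overlaps 11.9% of its exonic bases on the other strand.

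CYR61, at chr1:86046444-86050272 on the plus strand with 5 exons, had 434.5, 437.3 and 443.1 CPM in control and 489.8, 488.0 and 477.4 CPM in ADP-CM. Every ADP-CM library lay above every control. CYR61 rose 1.11-fold, a log2 fold change of 0.15 ± 0.0206 (95% interval 0.105 to 0.187, adjusted p = 3.08e-08). The intervals of CYR61 and CTGF did not overlap, but the difference between their changes was not tested. Of the 6 CCN genes 3 were tested. The third, NOV, fell by 0.65 on the log2 scale (SE 0.101, adjusted p = 3.19e-07), from 11.25 ± 0.678 to 7.17 ± 0.351 CPM. WISP1, WISP2 and WISP3 had 0 or 1 read in every library.

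ANKRD1 encodes an ankyrin repeat protein first studied in heart muscle, and its transcript is widely used to read YAP activity. It lies at chr10:92671853-92680844 on the minus strand with 9 exons. ANKRD1 had 7.15, 9.24 and 9.01 CPM in control and 5.69, 6.11 and 4.35 CPM in ADP-CM. The groups did not overlap, although control replicate 1 was low among the controls and ADP-CM replicate 3 low among the treated. Behind these values stood 116, 156 and 154 reads in control and 103, 112 and 80 reads in ADP-CM. ANKRD1 fell by 0.66 on the log2 scale (SE 0.1241, 95% interval -0.90 to -0.41, adjusted p = 1.76e-05), to 0.636 of control. Without ADP-CM replicate 3 the log2 fold change was -0.52, which passed the adjusted p but not the fold limit of 1.5 (0.585 on the log2 scale). The other muscle ankyrin repeat genes did not pass: ANKRD2 had a log2 fold change of 0.05 (adjusted p = 0.279) and ANKRD23 of 0.355 (adjusted p = 0.162).

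AXL encodes a receptor tyrosine kinase of the TAM family, activated by GAS6, and lies at chr19:41725128-41767671 on the plus strand with 20 exons. AXL had 49.4, 49.2 and 46.3 CPM in control and 65.1, 61.4 and 65.5 CPM in ADP-CM. The gap between the groups was wider than the range of either group. AXL rose 1.32-fold, a log2 fold change of 0.41 ± 0.0432 (95% interval 0.32 to 0.49, adjusted p = 6.43e-12). AXL was the only one of the 5 TAM genes that passed, beside 13.5% raised and 13.0% lowered over all tested genes. The receptors TYRO3 and MERTK had log2 fold changes of 0.03 (adjusted p = 0.601) and -0.035 (adjusted p = 0.7). For the ligand GAS6, 107.5 ± 5.04 CPM in control stood against 102.1 ± 0.245 CPM in ADP-CM (adjusted p = 0.0753), and the ligand PROS1 had a log2 fold change of 0.27 (adjusted p = 0.198). No TAM gene fell, with 1 lower at an unadjusted p under 0.05 and 0 lowered in DESeq2. Of all 12663 tested genes, 2835 were lower at that limit and 1015 were lowered in DESeq2.

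**Figure D2:**
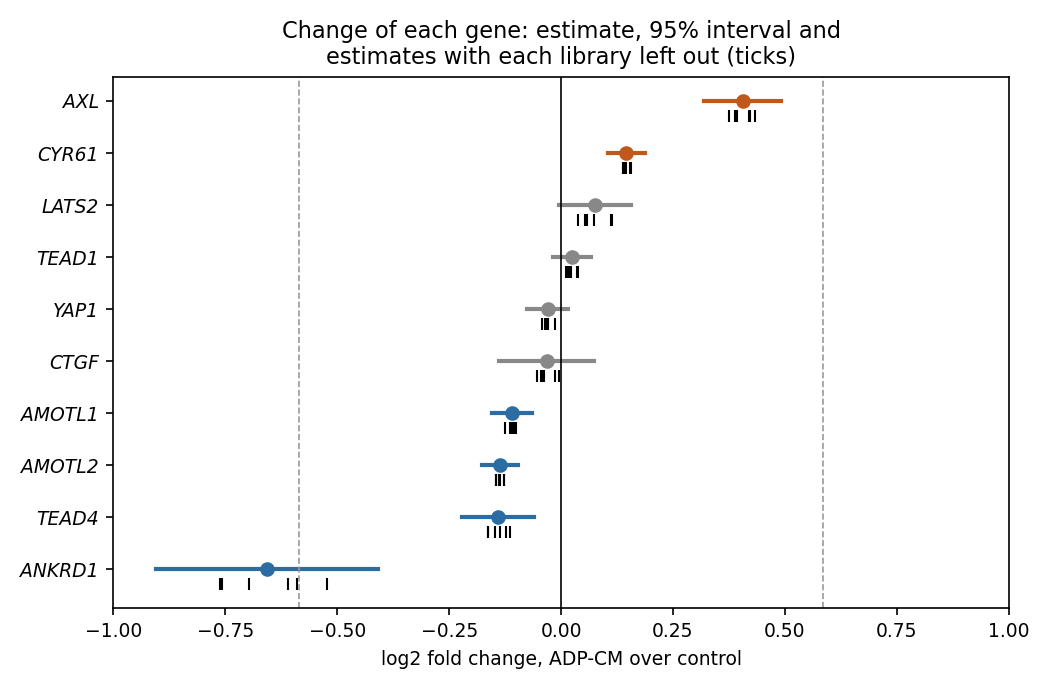
Log2 fold change of ADP-CM over control (x axis) for each of the 10 genes, with its 95% interval (line) and the estimates with each of the 6 libraries left out (ticks); orange passed upwards, blue passed downwards, grey did not pass at an adjusted p under 0.01, and dashed lines mark a fold change of 1.5. ANKRD1 is the only gene past a dashed line, and 1 of its ticks falls inside it.

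The genes most like AXL over the 6 libraries were found by the Euclidean distance between mean-centred log2 CPM values, over all tested genes. Among the nearest were HES6 (distance 0.0626), SLIT3 (0.0717), FAM65A (0.0744) and SOD2 (0.0777). Their log2 fold changes ran from 0.37 to 0.43 and so lay around that of AXL. These distances rest on 2 groups of 3 libraries and say only that the changes were of like size and spread.

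Levels between genes were compared per length, as CPM per kb of merged exons in GENCODE. CYR61 was highest, at 119 ± 1.19 CPM per kb in control and 131 ± 1.81 in ADP-CM. AMOTL2 followed at 83.7 ± 1.07 and 76.2 ± 1.01 CPM per kb, then YAP1 at 52.4 ± 0.176 and 51.3 ± 1.08, TEAD1 at 40.8 ± 0.735 and 41.5 ± 0.579, and AMOTL1 at 36.7 ± 0.726 and 34.0 ± 0.14. TEAD4 stood at 29.4 ± 0.826 and 26.6 ± 0.944 CPM per kb. The lower end held CTGF at 14.7 ± 0.516 and 14.4 ± 0.346, LATS2 at 12.3 ± 0.573 and 13.0 ± 0.66, AXL at 9.41 ± 0.346 and 12.5 ± 0.445, and ANKRD1 at 4.73 ± 0.639 and 3.01 ± 0.513 CPM per kb. LATS2 and AXL were the only neighbours in this order whose libraries overlapped: AXL lay under LATS2 in control, and their ranges overlapped in ADP-CM. The order of the control means was the same when the length of the canonical transcript was used. Of the 4 TEAD genes TEAD1 was highest and TEAD4 next, followed by TEAD3 at 18.1 CPM per kb in control and TEAD2 at 0.627. YAP1 stood far above WWTR1, the gene of TAZ, which was at 4.97 CPM per kb in control.

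**Figure D3:**
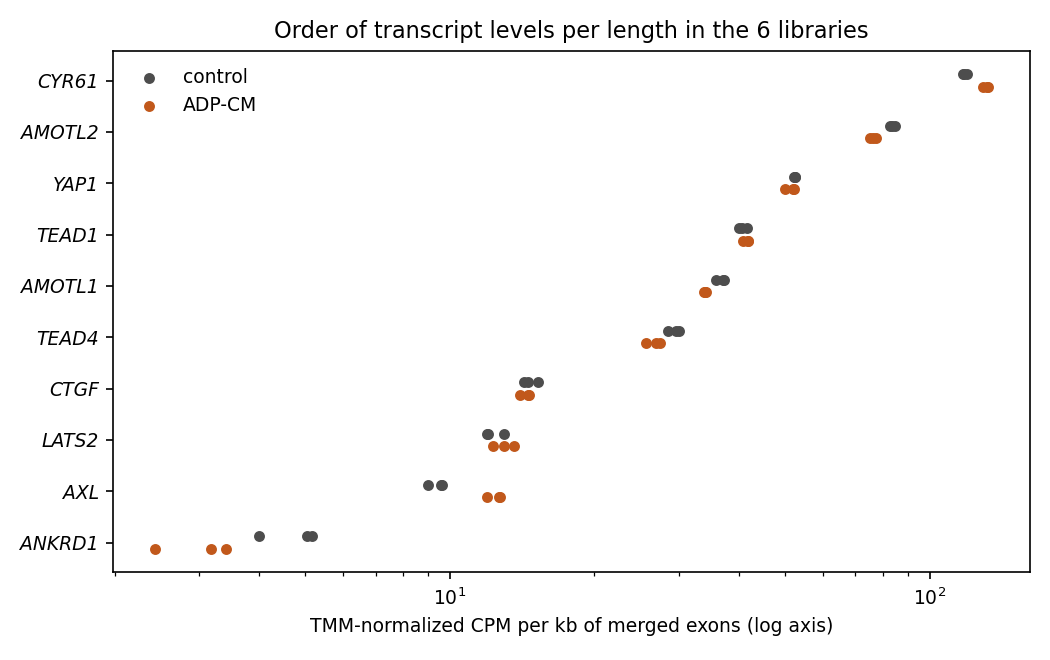
TMM-normalized CPM per kb of merged exons (x axis, log scale) of the 10 genes in each of the 6 libraries, grey for control and orange for ADP-CM, ordered by the control mean. CYR61 is highest at 119 CPM per kb in control and ANKRD1 lowest at 4.73, and AXL lies under LATS2 in control and overlaps it in ADP-CM.

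The other genes of the pathway were read from lists written by hand, by role. Among the 7 core kinases and their cofactors, STK4 rose and SAV1 fell, beside 13.5% raised and 13.0% lowered over all tested genes. STK4, which encodes the kinase MST1, had 73.0, 73.3 and 70.9 CPM in control and 85.8, 83.9 and 86.3 CPM in ADP-CM, a log2 fold change of 0.24 ± 0.0361 (adjusted p = 2.06e-07). SAV1, the scaffold of MST1/2, had 47.6 ± 0.351 and 41.7 ± 0.892 CPM and fell by 0.19 on the log2 scale (adjusted p = 7.04e-04), with 31.9% of its exonic bases overlapped by ATL1 on the other strand. The median log2 fold change of the 7 was 0.07.

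Upstream regulators and junctional proteins that bind YAP made up the next list. Of 23 genes 22 were tested, of which 3 rose and 7 fell, with a median log2 fold change of 0.03. Over all tested genes 13.5% rose and 13.0% fell. The genes of this list lie at all levels, and the share called either way ran from 16.5% under 30 CPM to 56.3% at 300 CPM or more. The lean depended on the limit: at an unadjusted p under 0.05, 8 of the list were higher and 7 lower. Of all 12663 tested genes, 2859 were higher and 2835 lower at that limit. In DESeq2 2 were raised and 5 lowered, beside 1124 raised and 1015 lowered over all tested genes. AMOTL1 and AMOTL2 were among those that fell. CRB3, an apical polarity protein of epithelia, fell the most, by 0.43 on the log2 scale (SE 0.0733, adjusted p = 2.53e-06), from 19.9 ± 1.25 to 14.8 ± 0.877 CPM. WWC3, a relative of the Hippo activator KIBRA, fell by 0.16 (adjusted p = 0.00109). FRMD6, a FERM protein upstream of the kinases, rose by 0.155 (adjusted p = 1.91e-06) and WWC2 by 0.12 (adjusted p = 0.00465), with 21.8% of the exonic bases of WWC2 overlapped on the other strand. The call of WWC2 was lost under DESeq2 (adjusted p = 0.0349) and when replicate 1 (0.0127) or 3 (0.0723) of control, or ADP-CM replicate 2 (0.0758), was left out. The call of WWC3 was lost under DESeq2 (adjusted p = 0.0144) and without control replicate 2 (0.0152) or ADP-CM replicate 2 (0.0111).

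A signature of 22 genes used in many tumours to read YAP and TAZ activity was also read. Of 21 tested genes, 8 rose and 7 fell, with a median log2 fold change of 0.10, and 1, ANKRD1, passed the fold limit of 1.5. In DESeq2 8 were raised and 5 lowered, beside 1124 raised and 1015 lowered over all 12663 tested genes. With each library left out in turn, 7 or 8 rose and 5 to 7 fell. Over all tested genes 13.5% rose and 13.0% fell. The signature holds genes of all levels. The share of tested genes called either way was 16.5% under 30 CPM and 28.8% from 30 to 100 CPM. It was 40.4% from 100 to 300 CPM and 56.3% at 300 CPM or more. Without the 6 of the 10 genes that it holds, 15 were tested, of which 6 rose and 5 fell. DOCK5, an exchange factor for Rac, had 211.8, 211.2 and 199.2 CPM in control and 249.3, 247.6 and 249.1 CPM in ADP-CM, a log2 fold change of 0.26 ± 0.0258 (adjusted p = 4.08e-13). FJX1, a secreted relative of the fly protein four-jointed, fell by 0.155 (SE 0.0289, adjusted p = 1.35e-05), from 214.0 ± 5.37 to 192.3 ± 11.0 CPM. AXL and ANKRD1 bounded the signature above and below.

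YAP shares many cytoskeletal targets with SRF, and CTGF also answers to TGF-beta, so those lists were read too. Of 14 tested SRF and MRTF targets, 2 rose and 7 fell, with a median log2 fold change of -0.11. Over all tested genes the shares were the same 13.5% and 13.0%. These targets also lie at all levels, and the share called either way ran from 16.5% under 30 CPM to 56.3% at 300 CPM or more. TPM2, a tropomyosin, rose by 0.72 (SE 0.1299, adjusted p = 7.41e-06), from 4.34 ± 0.49 to 7.15 ± 0.496 CPM, and FHL2 rose by 0.185 (adjusted p = 1.38e-05). TAGLN, an actin-binding protein of smooth muscle, fell by 0.81 (SE 0.0709, adjusted p = 5.06e-15), from 24.3 ± 1.1 to 13.9 ± 1.1 CPM, but 38.1% of its exonic bases are shared with another gene on the same strand. The smooth muscle actin gene ACTG2 fell by 2.02 (adjusted p = 1.01e-05) on 18 to 26 reads in control and 4 to 7 in ADP-CM, and its reads are hard to tell from those of the other actins.

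Of 4 early TGF-beta targets 2 rose and 0 fell, beside 13.5% raised and 13.0% lowered over all tested genes. At an unadjusted p under 0.05, 1 of the 4 was lower, and 0 were lowered in DESeq2. Of all 12663 tested genes, 2835 were lower at that limit and 1015 were lowered in DESeq2. PMEPA1, a feedback inhibitor of TGF-beta signalling, rose by 0.80 on the log2 scale (SE 0.0377, adjusted p = 1.88e-27), from 56.3 ± 1.26 to 97.95 ± 2.96 CPM. SKIL, a repressor of SMAD proteins, rose by 0.16 (SE 0.0392, adjusted p = 0.00066), from 66.8 ± 3.74 to 74.7 ± 1.07 CPM. Without control replicate 3 SKIL did not pass (adjusted p = 0.0217), which leaves 1 raised gene. Whether the change of CTGF differed from theirs was not tested.

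**Figure D4:**
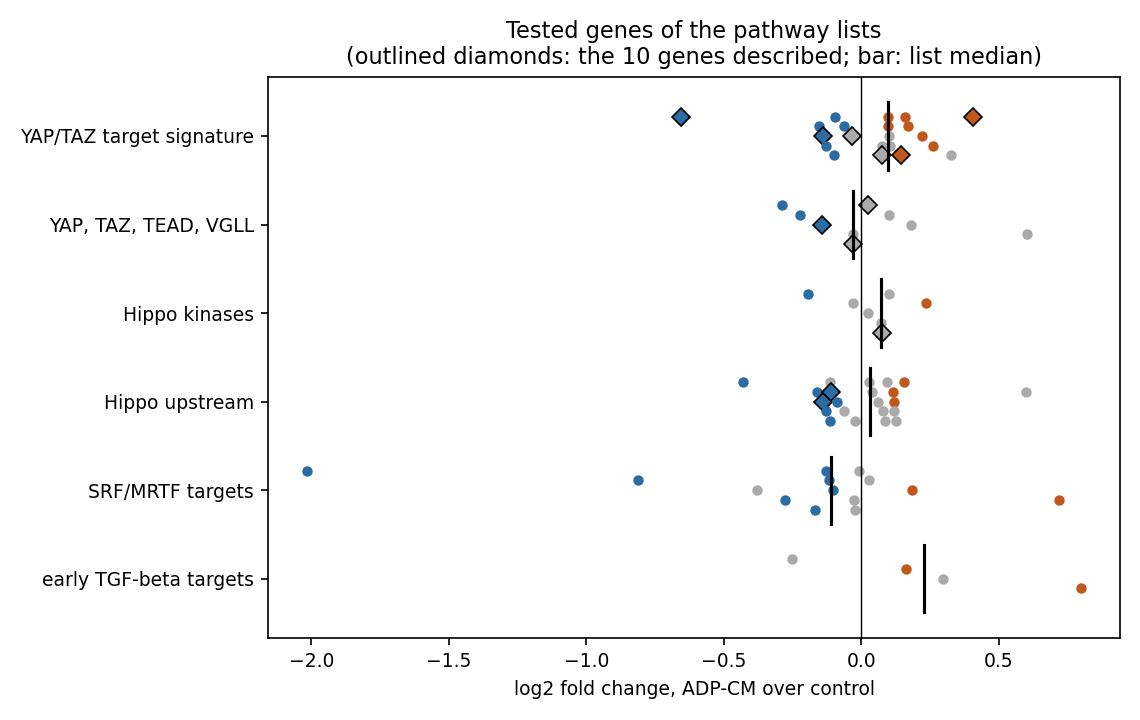
Log2 fold change of ADP-CM over control (x axis) for every tested gene of 6 pathway lists (y axis), orange for genes that rose, blue for genes that fell and grey for genes that did not pass; outlined diamonds are the 10 genes described and black bars are list medians. Medians lie between -0.11 and 0.23, with PMEPA1 farthest to the right at 0.80 and ACTG2 farthest to the left at -2.02.

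Over the 6 lists without the 10 genes, 64 of 67 genes were tested, and the median log2 fold change was 0.03. Of these 14 rose and 19 fell, beside 13.5% and 13.0% of all tested genes. They too lie at all levels, and the share called either way ran from 16.5% under 30 CPM to 56.3% at 300 CPM or more. The cells carried epithelial transcripts: all 7 epithelial and endometrial markers were tested, of which 2 rose (MUC1 and PAX8) and 4 fell (KRT19 and CDH1 the most, by 0.85 and 0.42 on the log2 scale). MUC1, at a mean of 0.954 CPM in control, did not pass without ADP-CM replicate 3 (adjusted p = 0.0417). Their summed level ran from 4090 to 4160 CPM in control and from 3440 to 3490 CPM in ADP-CM. Of 8 adipocyte markers 0 passed the filter, ADIPOQ and LEP had 0 reads in all 6 libraries, and the summed level was 0.616 to 1.24 CPM in control and 0.994 to 1.25 CPM in ADP-CM. Summed levels were 61.5 to 68.4 CPM in control and 78.3 to 79.1 CPM in ADP-CM for 6 fibroblast markers, mostly COL1A1, and 60.9 to 67.1 against 54.6 to 62.2 CPM for 5 endothelial markers, mostly CDH5 with KDR at 0. For 4 leukocyte markers, mostly CD68, they were 6.9 to 8.11 CPM against 9.76 to 11.9 CPM, but 81.6% of the exonic bases of CD68 are shared with another gene on the same strand. The share of reads on no gene was 10.3% ± 0.0528 in the control libraries and 11.5% ± 0.0331 under ADP-CM. The part of these differences in the changes of the 10 genes was not tested.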

How the data were processed

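Total RNA of 6 RL95-2 samples was made into stranded poly(A) libraries and sequenced from 1 end over 50 bp. With TopHat2 the authors placed the reads on hg19, and they deposited HTSeq's raw counts per RefSeq gene, one file per library. Program versions and the strand setting of the counting are not given in the sources used here, so genes that share exonic bases with another gene are uncertain. HTSeq leaves out reads without a unique alignment, and ambiguous reads. As shares of the sum of all lines of the HTSeq output, they were 20.5% and 0.719% in control, and 20.7% and 0.714% in ADP-CM. These lines, and reads on no gene, entered neither library sizes nor tests.

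In R 4.3.3, edgeR 4.0.16 (limma 3.58.1) was run on the deposited counts with TMM normalization, filterByExpr defaults (12663 of 23228 genes kept) and the quasi-likelihood test of 3 ADP-CM against 3 control libraries, with no further covariate. Benjamini-Hochberg adjustment covered all tested genes, with calls made at an adjusted p under 0.01. Every pair of replicates differed beyond sampling noise (chi-square per degree of freedom 1.231 to 2.048), so all 6 libraries were kept. CPM are TMM-normalized, and ± is the SD of 3 libraries or, after a log2 fold change, its SE. Log2 fold changes are those of the edgeR fit. The procedure was tested first on simulated counts that gave every gene the common dispersion, so differences in spread between genes were not covered.

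Alternatives were DESeq2 size factors, plain library sizes, the DESeq2 1.42.0 test, other limits on p and fold, a filter of 10 counts per library or none, the replicate number as a block and each library left out in turn. Positions, exon overlaps and lengths came from GENCODE release 44 on GRCh37, and promoter sequences from RefSeq. The 10 genes and all lists were chosen with earlier results of these data known, and the lists were written by hand. Named were the 10 genes, their paralogs WWTR1, TEAD2, TEAD3 and LATS1, up to 2 raised and 2 lowered genes of each other list with the largest log2 fold changes among called genes, and the 5 genes nearest to AXL. Some genes of these lists and of this rule are not reported here. The genes of the CCN, TAM and muscle ankyrin repeat families, AMOT, and the markers that led a summed level or had 0 reads were named in addition, after their values were seen.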

Additional observations from a re-analysis of the deposited data

Results flagged for a closer look

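Reads that fell on no gene enter no comparison of genes. They made up 11.5483% on average in ADP-CM and 10.2557% in control (SD 0.0331 and 0.0528, n = 3 each), and the groups did not overlap. The base was the sum of all lines of the HTSeq output, including reads without a unique alignment and ambiguous reads.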

How the results depend on the processing

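Over 12 alternatives of scaling, test, filter, block and left-out library, 9 of the 10 genes kept their direction and their side of the threshold, and TEAD4 lost its call in 5, with no change of direction. Log2 fold changes ranged from 0.38 to 0.43 for AXL, 0.14 to 0.16 for CYR61 and -0.76 to -0.52 for ANKRD1. The count of raised genes among the 10 was 2 throughout and that of lowered genes 3 or 4, also with each library left out. With a fold change over 1.5 required beside the adjusted p, 0 rose and 1 fell. Among the other pathway genes, of which 64 were tested in the main fit, 12 to 15 rose and 14 to 19 fell. Over these settings 12261 to 16801 genes were tested in all, and 2139 to 3502 were called. Same-numbered libraries of the 2 groups correlated at 0.073, 0.014 and 0.097 in their deviations from the group means (ADP-CM replicate 2 correlated better with control replicate 1, at 0.026), and the labels do not pair them. With the replicate block, 2 of the 10 rose and 4 fell, and over all genes 3502 were called against 3357. The DESeq2 test called fewer, 2139, of which 1124 rose and 1015 fell, against 1707 and 1650 in the main fit. The shares of 13.5% and 13.0% over all tested genes are those of the main fit and were lower under DESeq2. With 80 to 156 reads per library, ANKRD1 had the widest interval of the 10 (SE 0.1241).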
